A study of Mus musculus with 9 samples.

Results

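The 10 genes *Abca1*, *Abcg1*, *Apoe*, *Nr1h2*, *Nr1h3*, *Mylip*, *Srebf1*, *Pparg*, *Lpl*, and *Plin2* encode the liver X receptors (LXRs), transporters and lipoproteins that carry cholesterol out of macrophages, and partners in lipid uptake and storage. They were chosen by name. All 10 were among the 50559 genes listed in the counts of the authors and among the 16618 genes that passed the filter on low counts and were tested. RNA was sequenced from CD45+CD11b+ cells, a gate that takes macrophages, monocytes, and neutrophils together, sorted from quadriceps of *mdx* mice. These mice lack dystrophin and are a model of Duchenne muscular dystrophy, and the vehicle controls carry the same mutation, so that no group here shows healthy muscle. Mice took vehicle, the mineralocorticoid receptor antagonist spironolactone, or the glucocorticoid receptor agonist prednisolone with their drinking fluid over 7 days, and all mice were 4.5 weeks old when cells were collected. Each group had 3 libraries and mice of both sexes, and each library pooled the cells of 3 mice. *P* values therefore measure the spread between pools, and live and dead cells were not separated in the sort.

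Macrophages that clear dying muscle fibers take up membrane cholesterol, and cholesterol metabolites (oxysterols) bind LXRα (*Nr1h3*) and LXRβ (*Nr1h2*), which act with retinoid X receptors on direct repeats of a short DNA motif. LXRs induce the exporters *Abca1* and *Abcg1*, the apolipoprotein *Apoe*, the ubiquitin ligase *Mylip* (IDOL), which limits lipoprotein uptake, and *Srebf1*, which drives fatty acid synthesis. The fatty acid sensor PPARγ (*Pparg*), lipoprotein lipase (*Lpl*), and the lipid droplet coat protein perilipin 2 (*Plin2*) act in the uptake and storage of fatty acids in the same cells.

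Libraries held 31469815 to 32943512 counts on genes, and the 10 genes took 0.815% to 1.29% of them. Summed levels of 8 macrophage markers, *Csf1r*, *Cd68*, and *C1qa* among them, were 8161 to 9457 CPM (counts scaled to a common library total, with TMM factors) in vehicle, 9088 to 10062 CPM in spironolactone, and 7674 to 8485 CPM in prednisolone libraries. All prednisolone libraries were thus below all spironolactone libraries in this sum. Between the drugs, 4 of the 8 markers had a positive and 4 a negative log2 fold change (median 0.12). Of the 8, 1 was called higher with spironolactone than with prednisolone (edgeR). Markers of adipocytes, another cell type known for high *Pparg*, *Lpl*, and *Plin2*, summed to at most 2.11 CPM in any library, with 7 of 8 below 1 CPM throughout and *Adrb3* at 0. Vehicle replicate 3 and spironolactone replicate 3 stood apart by neutrophil markers, whose 8 genes summed to 4280 and 3245 CPM there against 694 to 1409 CPM in the other 7 libraries. All spironolactone libraries (1227 to 3245 CPM) were above all prednisolone libraries (714 to 912 CPM), and 7 of the 8 markers had a positive log2 fold change between the drugs (median 1.77), with 0 called by edgeR and 3 under 0.05 unadjusted. Monocyte markers (6 genes) summed to 1096 to 2567 CPM in vehicle, 1494 to 1761 CPM in spironolactone, and 2065 to 2805 CPM in prednisolone libraries. The single monocyte markers were split, with 3 positive and 3 negative log2 fold changes between the drugs and likewise for prednisolone against vehicle. Erythroid markers (6 genes) summed to 186 to 305 CPM in spironolactone, 37.1 to 79.7 CPM in prednisolone, and 70.2 to 135 CPM in vehicle libraries. Endothelial markers (8 genes) were likewise at 99.1 to 166 CPM in spironolactone, 61.2 to 85.0 CPM in prednisolone, and 44.5 to 82.9 CPM in vehicle libraries. Skeletal muscle markers (8 genes) summed to 226 to 346, 434 to 729, and 346 to 508 CPM in vehicle, spironolactone, and prednisolone libraries, and 8 fibro-adipogenic markers to 636 to 902, 838 to 1214, and 799 to 894 CPM. Dendritic cell markers reached at most 127 CPM, and lymphocyte markers at most 6.62 CPM. The part of these differences in the results that follow was not tested, and in such bulk samples fewer cells of a type and less RNA per cell cannot be told apart.

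Per transcript length, *Apoe* was by far the most abundant of the 10 genes, at a mean of 6702 TPM (counts scaled by transcript length and library total) over the 9 libraries, a level above 99.9% of the tested genes. *Lpl* and *Plin2* followed at 721 and 679 TPM, and their ranges over the libraries overlapped. Both stood apart from the next group, in which *Nr1h2*, *Abcg1*, and *Abca1* had 175, 173, and 118 TPM with overlapping neighbors. *Mylip*, *Srebf1*, and *Nr1h3* lay lower, at 61.2, 59.7, and 58.6 TPM, and did not differ beyond their spread. *Pparg* had the lowest level, at 33.5 TPM, and its highest library (47.2 TPM) was below the lowest of *Nr1h3* (48.4 TPM). Per length the transcript of LXRβ (161 to 196 TPM) was more abundant than that of LXRα (48.4 to 71.4 TPM) in every library. With the longest transcript in place of all exons as length, *Mylip* and *Nr1h3* exchanged ranks, and the other 8 genes stayed in place.

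**Figure D1:**
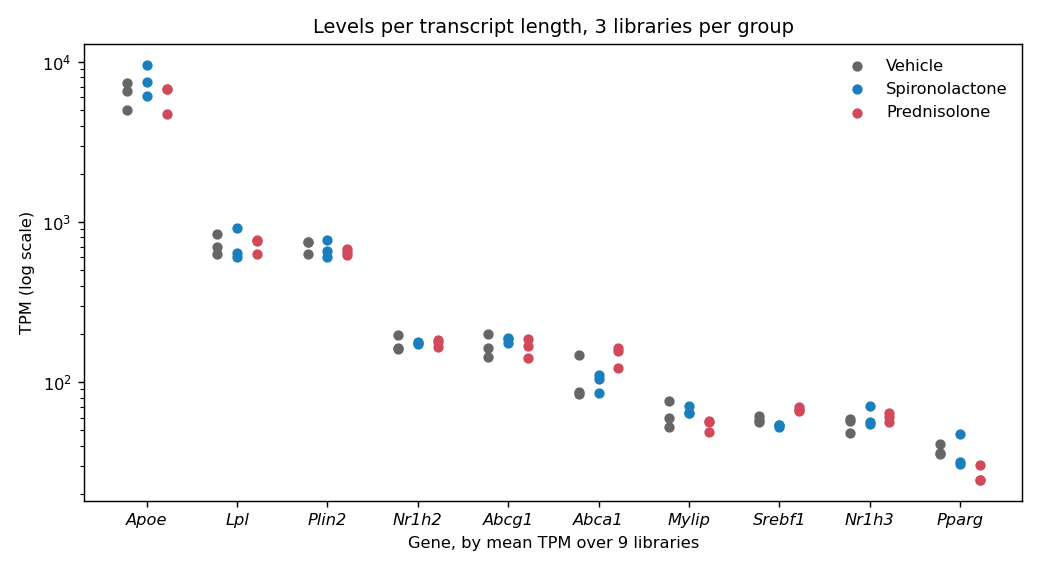
Levels per transcript length (TPM, log scale) of the 10 genes, ordered by their mean, with 1 point per library and 3 libraries per group in gray (vehicle), blue (spironolactone), and red (prednisolone). With all exons as length, *Apoe* at 4737 to 9591 TPM lies above all other genes in every library, and *Pparg* at 24.5 to 47.2 TPM lies below them.

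LXRs and the glucocorticoid receptor bind DNA directly, so that the promoters of the 10 genes were searched for their elements. Windows of 250 bases before each start in RefSeq (build GRCm38.p6) were searched on both strands for the LXR element DR4 (AGGTCA, any 4 bases, and AGGTCA again) and the glucocorticoid element (AGAACA, any 3 bases, and TGTTCT), each with up to 3 mismatches. A DR4 match of this kind occurs in 20.9% of the 27025 genes of the table and was found in 2 of the 8 members that have a window, *Abca1* and *Srebf1*. Counted by window, as a gene can have several starts, it was in 2 of 15 windows of the members, against 18.5% of all 32851 windows. The glucocorticoid element occurs in 14.1% of genes and was found in 0 of the 8, so that no match of one overlapped a match of the other. The *Abca1* window is chr4:53159896-53160145 on the minus strand, and its match, which reads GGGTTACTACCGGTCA on the opposite strand, lies 67 to 52 bases before the start. The *Srebf1* window belongs to the third of its listed starts, chr11:60210472-60210721 on the minus strand, with the match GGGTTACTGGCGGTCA on the opposite strand 182 to 167 bases before the start. Both matches have 3 mismatches to the DR4 letters. The windows of *Abca1* and *Srebf1* are shown for these matches. The *Mylip* window, chr13:45389492-45389741 on the plus strand, holds no such match. It is shown as that of the only member called between the drugs in the reported edgeR fit of all 9 libraries. The sequences run 5′ to 3′ along the strand of the gene, with the DR4 match in capitals.
Abca1: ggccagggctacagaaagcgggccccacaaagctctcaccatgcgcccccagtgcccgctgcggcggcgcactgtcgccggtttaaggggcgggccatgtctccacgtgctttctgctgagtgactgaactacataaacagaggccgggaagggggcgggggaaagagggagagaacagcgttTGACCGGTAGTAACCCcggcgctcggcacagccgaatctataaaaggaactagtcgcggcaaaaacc
Srebf1: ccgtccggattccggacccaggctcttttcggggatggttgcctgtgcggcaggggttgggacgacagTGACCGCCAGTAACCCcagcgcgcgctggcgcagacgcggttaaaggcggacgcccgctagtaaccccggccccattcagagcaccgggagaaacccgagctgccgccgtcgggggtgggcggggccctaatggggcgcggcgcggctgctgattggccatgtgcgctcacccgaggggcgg
Mylip: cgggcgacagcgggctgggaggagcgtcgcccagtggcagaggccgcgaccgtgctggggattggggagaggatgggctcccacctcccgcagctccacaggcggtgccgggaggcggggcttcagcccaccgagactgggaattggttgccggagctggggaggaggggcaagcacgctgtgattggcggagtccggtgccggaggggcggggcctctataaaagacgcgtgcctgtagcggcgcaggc
*Abcg1* and *Lpl* have no entry in this table.

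In the edgeR fit of all 9 libraries, neither drug changed any of the 10 genes against vehicle past an adjusted *P* of 0.05, and between the drugs 1 gene, *Mylip*, was higher with spironolactone. For prednisolone against vehicle, the quasi-likelihood test of edgeR called 0 of 10 (1.76% of all tested genes were called, 1% higher and 0.758% lower), and 3 of 10 (*Abca1*, *Pparg*, and *Mylip*) had an unadjusted *P* under 0.05, as did 14.2% of all tested genes. DESeq2 called 1 of the 10 (*Pparg*), and 686 of all 29739 genes with a count. With limma-voom, 0 of the 10 and 262 of the 16618 tested genes were called. For spironolactone against vehicle, edgeR, DESeq2, and limma-voom each called 0 of 10, and none had an unadjusted *P* under 0.05 in edgeR. The edgeR background was 0.0181% called and 9.29% under 0.05 unadjusted. Over all genes edgeR called 3, DESeq2 263, and limma-voom 0. A count of 0 of 10 in edgeR or limma-voom therefore cannot set these genes apart from the rest. For spironolactone against prednisolone, edgeR called 1 of 10 (5.17% of all tested genes were called, 2.38% higher and 2.79% lower), and 5 of 10 had an unadjusted *P* under 0.05 (22.5% of all). DESeq2 called 4 of the 10 there (*Abca1*, *Pparg*, *Mylip*, and *Srebf1*), and 1594 of all 29739 genes with a count. With limma-voom, 0 of the 10 and 822 of the 16618 tested genes were called. The median log2 fold change of the 10 genes was -0.10 for prednisolone against vehicle (-0.01 over all tested genes), 0.02 for spironolactone against vehicle (9.04e-05 over all), and 0.13 for spironolactone against prednisolone (0.03 over all). The 3 libraries of a group lay wholly outside those of the other for 3, 1, and 5 of the 10 genes in these comparisons, against 19.7%, 13.5%, and 30.3% of all tested genes. The comparisons share libraries, so that the same prednisolone values enter both the first and the third.

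**Figure D2:**
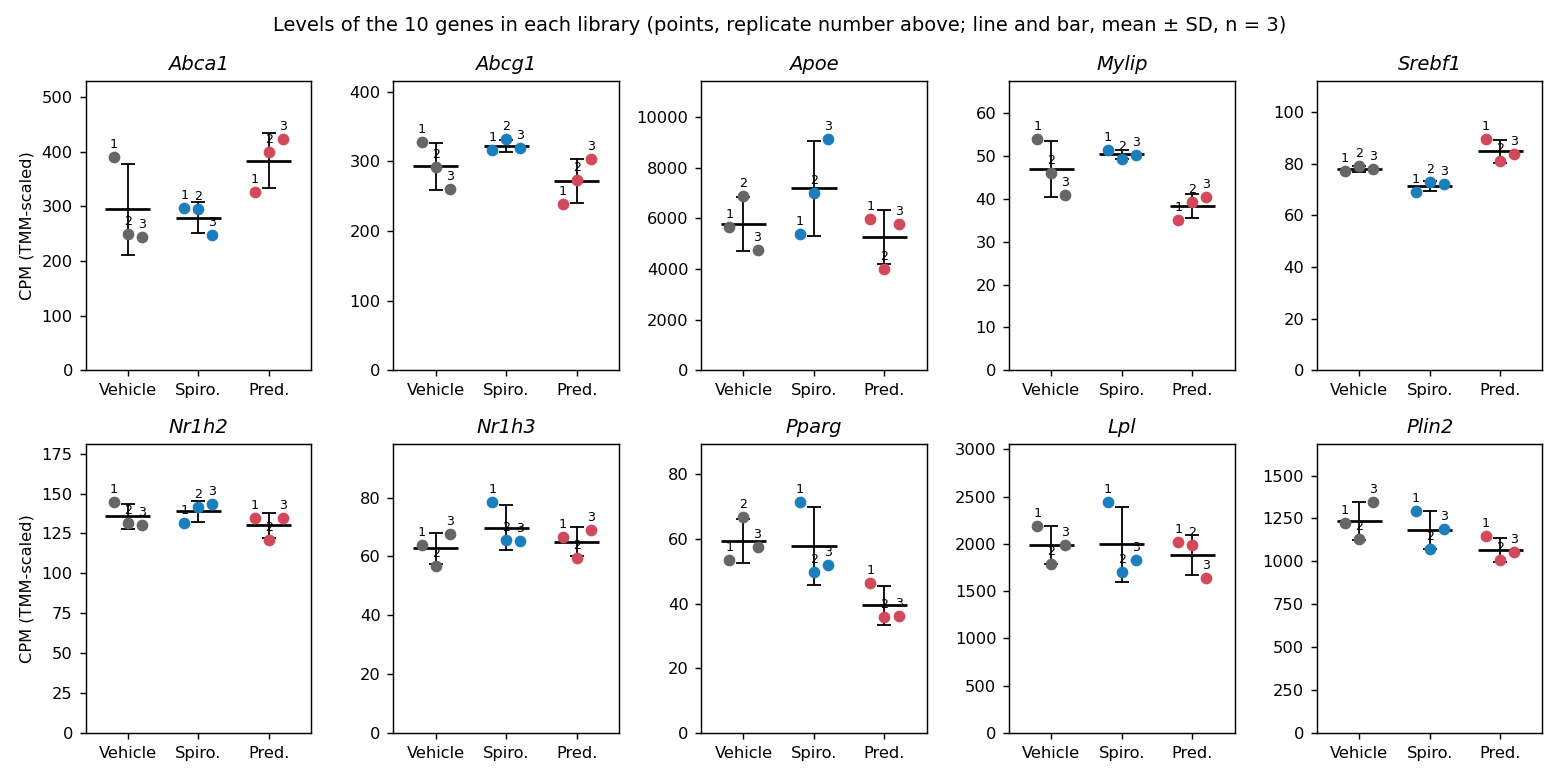
Levels of the 10 genes in CPM scaled by TMM factors, from 0, for vehicle, spironolactone (Spiro.), and prednisolone (Pred.) libraries. Points are libraries with the replicate number beside them, and lines and bars show mean ± SD (n = 3). *Srebf1* shows the 3 groups apart, with spironolactone at 69.0 to 72.9 CPM, vehicle at 77.1 to 79.1 CPM, and prednisolone at 81.3 to 89.7 CPM, and the *Pparg* levels of prednisolone libraries (35.9 to 46.5 CPM) lie below all others.

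**Figure D3:**
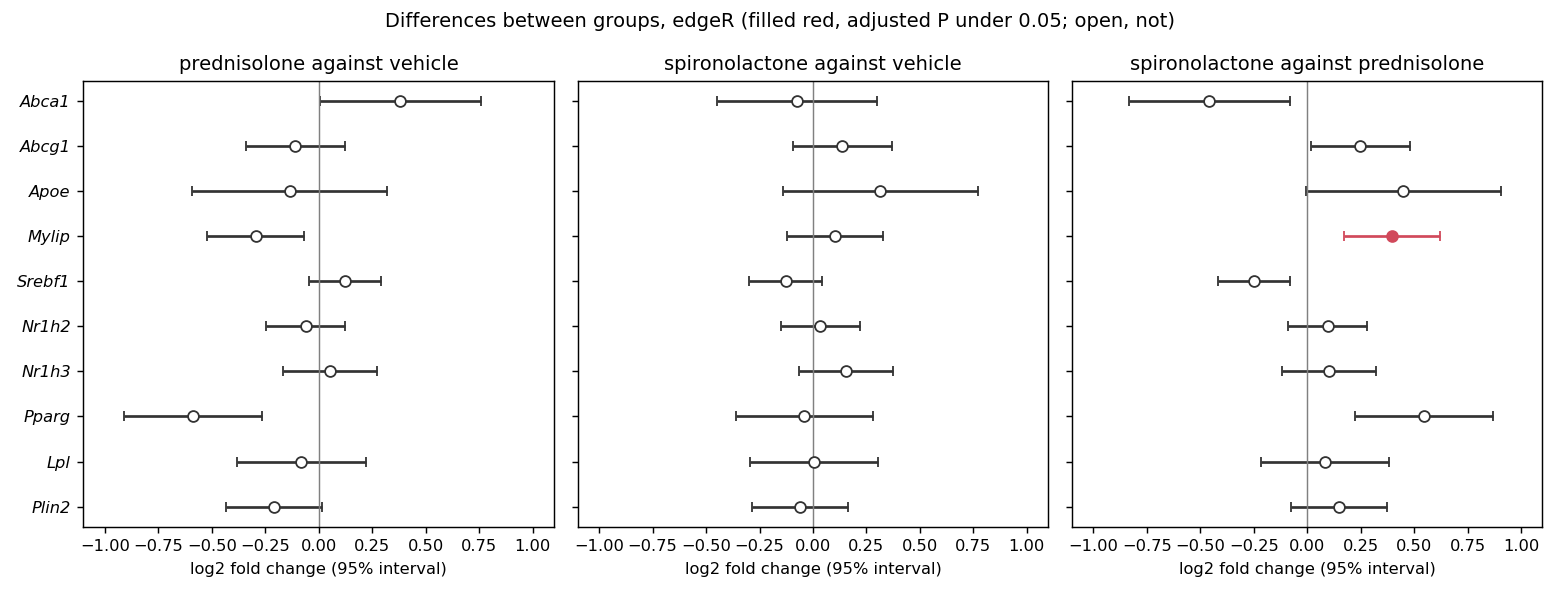
Fold changes (log2, edgeR) of the 10 genes in the 3 comparisons, with 95% intervals, where a filled red point marks an adjusted *P* under 0.05 and open points the others. The only filled point is *Mylip* for spironolactone against prednisolone (0.40), and all intervals of spironolactone against vehicle include 0.

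Among the exporters, *Abca1* was highest with prednisolone and *Abcg1* was not. *Abca1*, which loads cholesterol and phospholipid onto lipid-poor apolipoproteins, had 390.4, 249, and 243 CPM in vehicle replicates 1 to 3, 296, 295, and 247 CPM in spironolactone replicates, and 327, 399.7, and 423 CPM in prednisolone replicates. All 3 prednisolone libraries lay above all 3 spironolactone libraries, and vehicle replicate 1 lay among the prednisolone values. The log2 fold change was 0.38 ± 0.17 (SE) for prednisolone against vehicle (adjusted *P* = 0.341, edgeR) and -0.46 ± 0.17 for spironolactone against prednisolone (adjusted *P* = 0.141). Without vehicle replicate 1, the first of these became 0.64 with an adjusted *P* of 0.00663, and the second had an adjusted *P* of 0.0115 (edgeR). This was not particular to *Abca1*, as calls over all genes rose from 293 to 826 and from 859 to 1898 in that fit. Vehicle replicate 1 had a lower monocyte marker sum (1096 CPM) than vehicle replicates 2 and 3 (2567 and 2379 CPM), and its part was not tested. Over the fits without 1 library, the first ranged from 0.27 to 0.64, and 1 of 9 called it. Without vehicle and spironolactone replicates 3, which were rich in neutrophil transcripts, they were 0.27 (adjusted *P* = 0.631, edgeR) and -0.38 (adjusted *P* = 0.306). For spironolactone against vehicle the log2 fold change was -0.08 ± 0.17, with a 95% interval of -0.45 to 0.30, and 0.18 without vehicle replicate 1.

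*Abcg1*, which exports cholesterol to mature high-density lipoprotein, had 328, 293, and 260.0 CPM in vehicle, 316, 333, and 319 CPM in spironolactone, and 239, 273, and 303 CPM in prednisolone libraries. The spironolactone libraries lay within 316 to 333 CPM, all above the prednisolone libraries, and the vehicle libraries spanned most of both ranges. Between the drugs *Abcg1* differed by 0.25 ± 0.11 on the log2 scale (adjusted *P* = 0.191, edgeR). Against vehicle it was 0.14 (95% interval -0.09 to 0.37) for spironolactone and -0.11 (-0.34 to 0.12) for prednisolone. The exporters thus had differences of opposite sign between the drugs. Neither passed the threshold in the reported edgeR fit of all 9 libraries, while DESeq2 called *Abca1*.

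*Apoe*, the lipoprotein that macrophages secrete and that accepts exported cholesterol, varied most among pools, by 2.28-fold from its lowest to its highest library. Its levels were 5653, 6899, and 4761 CPM in vehicle, 5395, 6999.8, and 9137 CPM in spironolactone, and 5960.2, 4014, and 5793 CPM in prednisolone libraries. The groups overlapped, the highest value was that of spironolactone replicate 3, and the lowest was that of prednisolone replicate 2. The log2 fold change was 0.31 ± 0.21 for spironolactone against vehicle (adjusted *P* = 0.699, edgeR), -0.13 ± 0.21 for prednisolone against vehicle (adjusted *P* = 0.834), and 0.45 ± 0.21 between the drugs (adjusted *P* = 0.229). With vehicle replicate 3 and spironolactone replicate 3, the libraries with the most neutrophil transcripts, left out, these became -0.02, -0.25, and 0.23.

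Neither receptor gene was called in any comparison. *Nr1h2* (LXRβ), which is expressed in most cell types, had 145, 132, and 130.4 CPM in vehicle, 131, 142, and 143 CPM in spironolactone, and 135, 121, and 135 CPM in prednisolone libraries. Its highest library was 1.20-fold its lowest, the smallest such ratio of the 10 genes, and the groups overlapped. For *Nr1h3* (LXRα), the form abundant in liver, fat, and macrophages, the levels were 63.8, 56.9, and 67.5 CPM in vehicle, 78.7, 65.6, and 65.3 CPM in spironolactone, and 66.6, 59.5, and 69.0 CPM in prednisolone libraries. Spironolactone replicate 1 was its highest value, 1.38-fold its lowest, and the groups again overlapped. For prednisolone against vehicle, the 95% intervals of the log2 fold change were -0.25 to 0.12 for *Nr1h2* and -0.17 to 0.27 for *Nr1h3*. For spironolactone against vehicle they were -0.15 to 0.22 and -0.07 to 0.38. Between the drugs they were -0.09 to 0.28 and -0.12 to 0.32, and the adjusted *P* values of both genes ranged from 0.565 to 0.951 over the comparisons (edgeR).

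Of the LXR targets outside export, *Mylip* was higher with spironolactone than with prednisolone, and *Srebf1*, with the opposite sign, missed the threshold in edgeR. DESeq2 called both, and limma-voom called neither. *Mylip* had 54.0, 46.0, and 40.9 CPM in vehicle, 51.5, 49.4, and 50.3 CPM in spironolactone, and 35.1, 39.2, and 40.5 CPM in prednisolone libraries. The prednisolone libraries were below every other library, although vehicle replicate 3 (40.9 CPM) came within 1 CPM of prednisolone replicate 3. *Mylip* was higher with spironolactone than with prednisolone, at a log2 fold change of 0.40 ± 0.10 (95% interval 0.17 to 0.62, adjusted *P* = 0.0445, edgeR), in 3 of 3 libraries. For prednisolone against vehicle the value was -0.30 ± 0.10 (adjusted *P* = 0.199, edgeR), and for spironolactone against vehicle it was 0.10 (95% interval -0.12 to 0.33). The call between the drugs was near the threshold: its adjusted *P* ranged from 0.00554 to 0.0781 over 11 other settings of the fit, 7 of which called it. It ranged from 0.00899 without vehicle replicate 1 to 0.177 without prednisolone replicate 1, and without vehicle replicate 2, any spironolactone library, or any prednisolone library the gene was not called. Without both libraries rich in neutrophil transcripts, the log2 fold change was 0.39 and the adjusted *P* was 0.102.

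*Srebf1*, the transcription factor gene of fatty acid synthesis, had 77.1, 79.1, and 77.9 CPM in vehicle, 69.0, 72.9, and 72.4 CPM in spironolactone, and 89.7, 81.3, and 83.7 CPM in prednisolone libraries. All 3 groups were apart, with every prednisolone library above and every spironolactone library below the vehicle range. The steps were small, at a log2 fold change of 0.12 ± 0.08 for prednisolone against vehicle (adjusted *P* = 0.538, edgeR), -0.13 ± 0.08 for spironolactone against vehicle (adjusted *P* = 0.665), and -0.25 ± 0.08 between the drugs (adjusted *P* = 0.0817). The adjusted *P* between the drugs was 0.0421 without vehicle replicate 1 (edgeR) and 0.0873 with a replicate block. Without both libraries rich in neutrophil transcripts, the log2 fold change was -0.27 and the adjusted *P* was 0.184 (edgeR). Exons of *Rai1* overlap *Srebf1* on the opposite strand. The strand setting of the counting is not given in the sources used here, so that it is not known how reads of the overlap were counted.

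**Figure D4:**
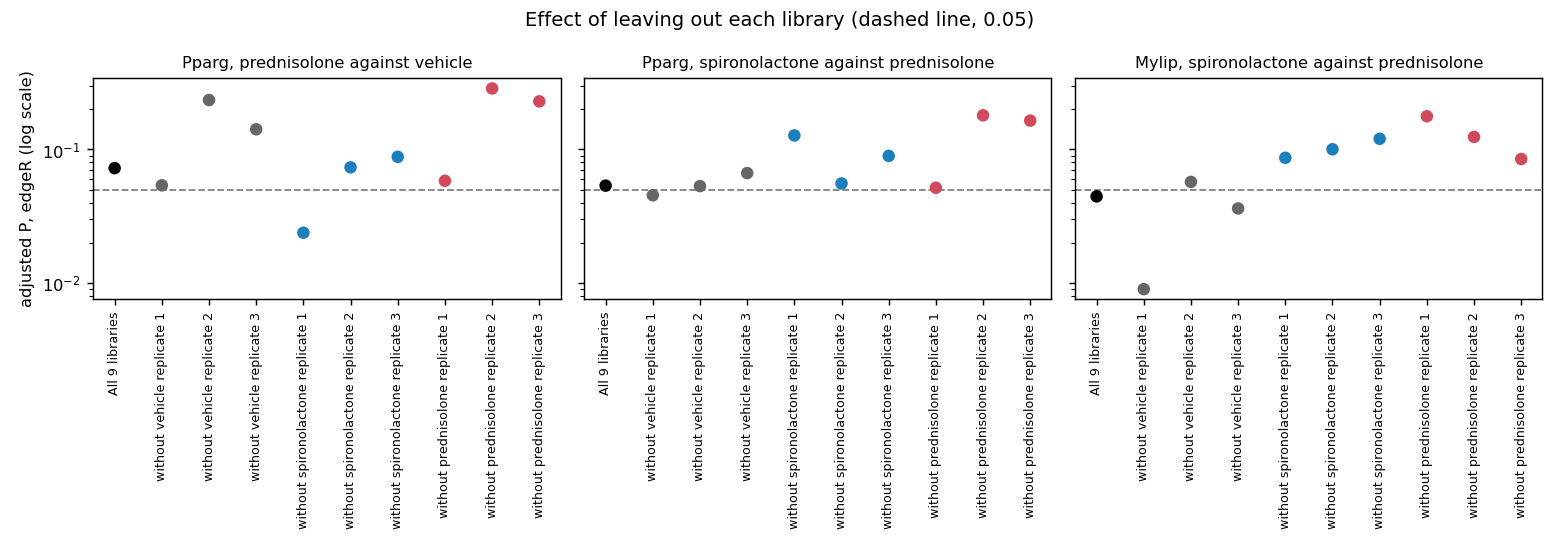
Adjusted *P* values (edgeR, log scale) of *Pparg* and *Mylip* with all 9 libraries (black) and without each library in turn (gray, vehicle; blue, spironolactone; red, prednisolone left out), with a dashed line at 0.05. *Mylip* between the drugs moves from 0.0445 with all libraries to between 0.00899 and 0.177, and *Pparg* for prednisolone against vehicle moves from 0.0725 to between 0.0238 and 0.287.

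Among genes of fatty acid uptake and storage, *Pparg* had its lowest levels with prednisolone. *Lpl* was near level across the groups, and *Plin2* was at the low end with prednisolone without a call in edgeR. *Pparg* had 53.6, 66.9, and 57.6 CPM in vehicle, 71.6, 49.7, and 51.8 CPM in spironolactone, and 46.5, 35.9, and 36.2 CPM in prednisolone libraries. Every prednisolone library was below every other library. The log2 fold change of -0.59 ± 0.15 for prednisolone against vehicle, the largest in size of the 10 genes in that comparison, missed the threshold (95% interval -0.91 to -0.26, adjusted *P* = 0.0725, edgeR). That of 0.55 ± 0.15 for spironolactone against prednisolone missed it as well (95% interval 0.22 to 0.87, adjusted *P* = 0.0536, edgeR). Each was called by 5 of 11 other settings, with adjusted *P* values from 5.14e-05 to 0.0856 and from 0.000157 to 0.0616. Without spironolactone replicate 1, the highest library, prednisolone against vehicle had an adjusted *P* of 0.0238 (edgeR). That was the only call for prednisolone against vehicle in 9 fits without 1 library, in which the adjusted *P* reached 0.287. Without both libraries rich in neutrophil transcripts, the log2 fold change was -0.60 there (adjusted *P* = 0.159, edgeR) and 0.61 between the drugs (adjusted *P* = 0.105). Spironolactone and vehicle differed by -0.04, with an interval from -0.36 to 0.28. The defining markers of adipocytes were at or near 0 in all libraries (*Adipoq* at most 0.0935 CPM).

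*Lpl*, the secreted enzyme that frees fatty acids from lipoproteins, had 2190.3, 1791, and 1986 CPM in vehicle, 2448, 1701, and 1833 CPM in spironolactone, and 2022, 1984, and 1638 CPM in prednisolone libraries. The groups overlapped throughout, and the log2 fold changes were -0.08, 0.0036, and 0.08 for prednisolone against vehicle, spironolactone against vehicle, and spironolactone against prednisolone. The 95% intervals of all 3 lay between -0.38 and 0.38. *Plin2*, which coats lipid droplets, had 1225, 1130.2, and 1348 CPM in vehicle, 1291, 1071, and 1187 CPM in spironolactone, and 1145, 1006, and 1052 CPM in prednisolone libraries. Its prednisolone libraries were at the low end, with vehicle replicate 2 and spironolactone replicate 2 among them, and the log2 fold change against vehicle was -0.21 ± 0.10 (95% interval -0.43 to 0.02, adjusted *P* = 0.395, edgeR). Between the drugs it was 0.15 ± 0.10, and for spironolactone against vehicle it was -0.06 ± 0.10.

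The wider pathway was read from 5 lists of 102 other genes, 90 of which were tested. For prednisolone against vehicle, edgeR called 3 of the 90 (1 higher and 2 lower, against 1.76% of all tested genes), and 16 had an unadjusted *P* under 0.05 (14.2% of all). For spironolactone against vehicle, edgeR and limma-voom called 0 (and 3 and 0 over all genes), and DESeq2 called 2 (and 263 over all genes). There 12 had an unadjusted *P* under 0.05 in edgeR (9.29% of all). Between the drugs edgeR called 10, of which 7 were higher and 3 lower with spironolactone (5.17% of all tested genes), and 34 had an unadjusted *P* under 0.05 (22.5% of all). The 10 called genes spread over 4 of the lists.

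Partners and corepressors of LXR, such as the retinoid X receptors and the NCoR complex, showed no call of edgeR, DESeq2 on all libraries, or limma-voom for any of 14 tested genes in any comparison. For prednisolone against vehicle, spironolactone against vehicle, and spironolactone against prednisolone, 1, 1, and 3 of them had an unadjusted *P* under 0.05 in edgeR (14.2%, 9.29%, and 22.5% of all tested genes). DESeq2 on the drug groups alone called 2 between the drugs, among 2045 genes it called in all. *Tbl1xr1*, a subunit of the NCoR and SMRT corepressor complexes, had 66.5 to 70.1 CPM in vehicle, 52.9 to 61.8 CPM in spironolactone, and 52.7 to 58.6 CPM in prednisolone libraries. All 6 treated libraries were below vehicle, with a log2 fold change of -0.27 for each drug (adjusted *P* = 0.309 for spironolactone and 0.161 for prednisolone, edgeR). *Rxrg*, the third retinoid X receptor gene, was barely detected, at no more than 1.04 CPM, and its difference between the drugs (1.78 ± 0.59) had an adjusted *P* of 0.0927.

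Of 20 tested further LXR targets, edgeR called 2 for prednisolone against vehicle (1.76% of all tested genes) and 4 between the drugs (5.17% of all). For spironolactone against vehicle, edgeR, DESeq2, and limma-voom called 0 (and 3, 263, and 0 over all genes). There 1 had an unadjusted *P* under 0.05 in edgeR, against 9.29% of all. The called genes moved in both directions. *Cd5l*, a secreted macrophage protein (AIM) induced by LXR, had 31.6, 22.6, and 26.4 CPM in vehicle, 39.9, 26.4, and 36.1 CPM in spironolactone, and 16.6, 9.72, and 14.3 CPM in prednisolone libraries. It fell with prednisolone by 0.99 ± 0.21 on the log2 scale (adjusted *P* = 0.0357, edgeR) and was 2.52-fold higher with spironolactone than with prednisolone (adjusted *P* = 0.00587). *Abcb4*, a phospholipid transporter, rose with prednisolone from 5.02 to 5.52 CPM in vehicle libraries to 8.73 to 12.1 CPM, with a log2 fold change of 0.94 ± 0.20 and an adjusted *P* of 0.0323 (edgeR). Between the drugs it was lower with spironolactone, by -1.26 ± 0.21 (adjusted *P* = 0.00491). *Fasn*, the fatty acid synthase, and *Fads1*, a fatty acid desaturase, were lower with spironolactone than with prednisolone by -0.57 ± 0.12 (adjusted *P* = 0.0203) and -0.42 ± 0.11 (adjusted *P* = 0.0392). Both also had all prednisolone libraries above vehicle, at 60.6 to 80.8 against 43.5 to 53.4 CPM and at 70.4 to 71.6 against 44.5 to 60.6 CPM. Against vehicle they did not pass the threshold in edgeR (adjusted *P* = 0.0596 and 0.0654). Without both libraries rich in neutrophil transcripts, 0 of the list were called for prednisolone against vehicle and 2 between the drugs.

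The list of PPAR partners, targets, and lipid droplet genes had 21 tested members, of which 1 fell with prednisolone (0.758% of all tested genes) and 3 were higher with spironolactone than with prednisolone (2.38% of all). *Fabp5*, a fatty acid binding protein, had 459, 504, and 624 CPM in vehicle, 643, 527, and 630.5 CPM in spironolactone, and 393, 303, and 322 CPM in prednisolone libraries. It fell with prednisolone by 0.64 ± 0.13 on the log2 scale (adjusted *P* = 0.0282, edgeR) and was 1.77-fold higher with spironolactone than with prednisolone (adjusted *P* = 0.00490). *Fabp4*, its relative in adipocytes, macrophages, and endothelium, had 80.6 to 105 CPM in vehicle, 96.3 to 147 CPM in spironolactone, and 43.5 to 67.7 CPM in prednisolone libraries. Between the drugs it was 2.17-fold higher with spironolactone (log2 fold change 1.12 ± 0.18, adjusted *P* = 0.00782). *Mgll*, the lipase of monoglycerides, had 18.1 to 20.0 CPM in spironolactone libraries, above vehicle (10.3 to 13.5 CPM) and prednisolone (6.95 to 11.4 CPM). In the reported edgeR fit it passed the threshold only between the drugs (1.03 ± 0.17, adjusted *P* = 0.00500), with an adjusted *P* of 0.146 for spironolactone against vehicle. For spironolactone against vehicle, edgeR and limma-voom called 0 of the list (4 under 0.05 unadjusted in edgeR, against 9.29% of all tested genes). DESeq2 called 2 of the list there, and 263 over all genes. The 3 calls between the drugs were also 3 in number without the libraries rich in neutrophil transcripts, and the call for prednisolone against vehicle was then 0. Endothelial and erythroid markers moved the same way between the drugs, with 4 of 8 and 4 of 5 tested markers called higher with spironolactone, and their part was not tested.

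Lipoprotein uptake and cholesterol storage gave 20 tested genes, with 0 called for either drug against vehicle in edgeR (2 under 0.05 unadjusted for prednisolone and 5 for spironolactone, against 14.2% and 9.29% of all tested genes). DESeq2 called 1 for prednisolone and 0 for spironolactone (and 686 and 263 over all genes). With limma-voom, 0 were called for either drug (and 262 and 0 over all genes). Between the drugs edgeR called 2 (5.17% of all). *Scarb1*, the receptor of high-density lipoprotein, was higher with spironolactone (149 to 165 CPM) than with prednisolone (111 to 126 CPM), by 0.37 ± 0.09 (adjusted *P* = 0.0384, edgeR), with vehicle at 127 to 152 CPM. *Stard3*, which moves cholesterol out of late endosomes, was higher by 0.36 ± 0.09 (adjusted *P* = 0.0323), from 81.5 to 89.4 CPM with prednisolone to 106 to 115 CPM with spironolactone. Of 15 tested genes of oxysterol and SREBP control, *Cyp27a1*, a sterol hydroxylase that makes an oxysterol ligand of LXR, was the only one called between the drugs (5.17% of all tested genes), at 1.51-fold higher with spironolactone (77.7 to 98.3 CPM) than with prednisolone (50.1 to 64.1 CPM; adjusted *P* = 0.0356, edgeR). Against vehicle, 0 of these genes were called by edgeR for either drug (3 under 0.05 unadjusted for prednisolone and 1 for spironolactone, against the same 14.2% and 9.29%). DESeq2 called 1 for prednisolone and 0 for spironolactone, and limma-voom called 0, with the same calls over all genes as above. Without both libraries rich in neutrophil transcripts, 0 genes of these last lists were called between the drugs.

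**Figure D5:**
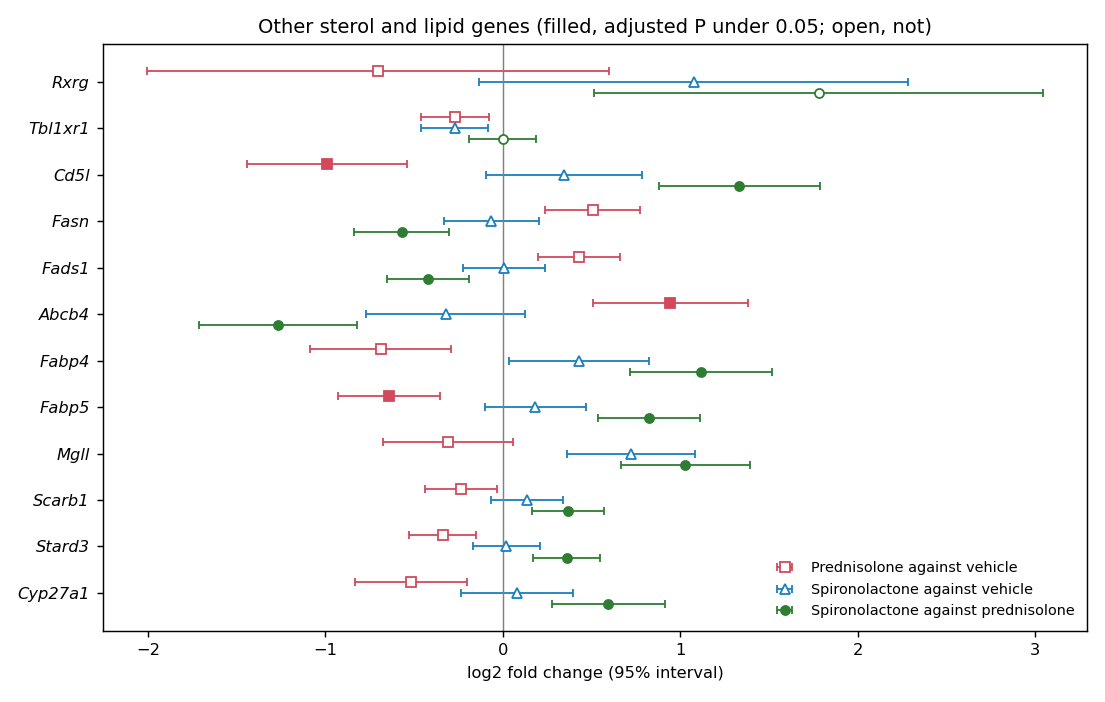
Fold changes (log2, edgeR, with 95% intervals) of 12 other sterol and lipid genes for prednisolone against vehicle (red squares), spironolactone against vehicle (blue triangles), and spironolactone against prednisolone (green circles), where filled points have an adjusted *P* under 0.05. Between the drugs, *Rxrg* lies farthest to the right (1.78, not called), the called *Cd5l*, *Fabp4*, *Fabp5*, and *Mgll* lie at 0.82 to 1.33, and *Abcb4* lies farthest to the left (-1.26).

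Gene positions are given on GRCm39 from GENCODE. *Abca1* spans chr4:53030787-53159900 on the minus strand, *Mylip* chr13:45543215-45565501 on the plus strand, *Srebf1* chr11:60089913-60113407 on the minus strand, and *Pparg* chr6:115337675-115468268 on the plus strand. Exons of annotated genes on the opposite strand overlap *Nr1h3*, *Pparg*, *Apoe*, *Lpl*, and *Srebf1*, and *Abca1*, *Nr1h2*, and *Plin2* overlap no other gene.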

How the data were processed

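RNA from 9 libraries of sorted CD45+CD11b+ quadriceps cells was analysed, with 3 libraries per treatment grouped by the treatment label. The deposited counts per gene are whole numbers that the authors made by alignment to mm39 with HISAT2 (2.2.1) and counting with HTSeq (0.11.3; versions from the submitters' processing notes). The annotation release and strand setting are not given in the sources used here. Deposited tables of the authors' own DESeq2 (1.32.0) comparisons hold fold changes and *P* values and were not used. Lines that name no gene (17.2% to 21.8% of reads) were left out.

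Genes were filtered with filterByExpr (minimum count 10, minimum total 15) and tested in edgeR 4.0.16 by its quasi-likelihood F test (TMM, robust=TRUE, all 9 libraries in one fit, R 4.3.3), two-sided, with Benjamini-Hochberg adjustment over 16618 genes and a threshold of 0.05. The sequencing depth gives about 32 counts at 1 CPM, and the biological coefficient of variation was 0.170, so that the spread between pools and not counting error limits the named genes other than *Rxrg*. Within groups, libraries differed far beyond sampling error (chi-square per degree of freedom 18.0 to 57.8). For TPM, counts were divided by the merged exon length that GENCODE gives for each symbol (40303 symbols had one). Promoters are from a RefSeq table by symbol.

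The 10 genes, the 5 lists of other genes, and the marker lists were chosen with earlier results of these data known. All 10 members are named, and of each other list the called genes, up to 6 by adjusted *P*, or where none was called the 2 with the smallest *P*. Single values of 2 genes of these lists are not reported here. For each member the most similar gene and member are named. Alternatives were DESeq2 1.42.0 and limma-voom (limma 3.58.1), fits of 2 groups, other normalizations and filters, robust=FALSE, a replicate block, and fits without each library. The fits were tested on simulated data.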

Additional observations from a re-analysis of the deposited data

How the results depend on the processing

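Among the 10 genes, no call for spironolactone against vehicle was made in any of 11 other settings, in any fit without 1 library, or in the fit added after seeing the data, which left out vehicle replicate 3 and spironolactone replicate 3. For prednisolone against vehicle the count of called genes was 0 as reported and 1 in DESeq2 (on all libraries and on 2 groups), in edgeR on 2 groups, and with the replicate block (*Pparg* in each), 2 without the low-count filter (*Abca1* and *Pparg*), and 0 to 1 without 1 library. Between the drugs it was 1 as reported, 4 in both DESeq2 fits and without the low-count filter, 2 in edgeR on 2 groups, with upper quartile normalization, and with the replicate block (*Pparg* and *Mylip*), 0 in limma-voom, with RLE, with robust=FALSE, and in the added fit, and 0 to 4 without 1 library, with 4 without vehicle replicate 1. Without vehicle replicate 1, calls over all genes rose as well, from 859 to 1898 between the drugs. The cause of these changes was not tested. Over all tested genes the counts for the 3 comparisons ranged from 69 to 1019, 0 to 528, and 232 to 2045, and no scaling moved the median of all genes by more than 0.0361 in size. Libraries with the same replicate number had deviations with correlations of -0.0380 to 0.151, so that the numbers were not taken as pairs and the replicate block stands only as an alternative. With it, *Pparg* had an adjusted *P* of 0.04997 for prednisolone against vehicle.

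Directions turned for values that were not called, most of them near 0, and for *Apoe* (0.31 as reported for spironolactone against vehicle) in the added fit. The log2 fold change of *Lpl* for spironolactone against vehicle became -0.00457 and -0.00204 in DESeq2 (all libraries and 2 groups), -0.00972 in limma-voom, -0.00322 with RLE, -0.00626 with library totals, and -0.00811 with the replicate block. In the added fit, spironolactone against vehicle gave -0.0218 for *Nr1h2*, 0.00762 for *Pparg*, -0.0223 for *Apoe*, and 0.000220 for *Plin2*. Without 1 library, values spanned 0 for prednisolone against vehicle for *Nr1h3* (-0.0125 to 0.114), *Apoe* (-0.253 to 0.0279), and *Lpl* (-0.150 to 0.0112), for spironolactone against vehicle for *Abca1* (-0.200 to 0.182), *Pparg* (-0.225 to 0.0552), *Lpl* (-0.170 to 0.105), and *Plin2* (-0.128 to 0.00440), and between the drugs for *Lpl* (-0.0905 to 0.185).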

Other observations

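Ratios of counts of 2 members within a library do not depend on the scaling, and those given here were chosen after the values were seen, so that no test is given. There were 1.37, 1.46, and 1.40 *Abca1* counts per *Abcg1* count in prednisolone replicates 1 to 3, 0.936, 0.886, and 0.774 in spironolactone replicates, and 1.19, 0.850, and 0.935 in vehicle replicates. All 3 prednisolone libraries lay above the other 6. *Srebf1* counts per *Mylip* count were 2.55, 2.07, and 2.07 with prednisolone, 1.34, 1.47, and 1.44 with spironolactone, and 1.43, 1.72, and 1.90 with vehicle, so that the prednisolone libraries again stood above all others. *Pparg* counts per *Nr1h3* count were 0.525 to 0.697 with prednisolone, 0.758 to 0.910 with spironolactone, and 0.839 to 1.18 with vehicle. *Nr1h3* counts per *Nr1h2* count overlapped between the groups, at 0.493 to 0.513, 0.455 to 0.599, and 0.432 to 0.517.

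Over the 9 libraries, which share treatment groups, the member most similar to *Mylip* by Pearson's r of log2 CPM was *Abcg1* (0.898), and the least similar was *Srebf1* (-0.851). *Pparg* was most similar to *Plin2* (0.745) and least similar to *Abca1* (-0.711), *Nr1h2* and *Apoe* were most similar to each other (0.745), *Abcg1* was most similar to *Mylip*, *Plin2* to *Pparg*, and *Srebf1* to *Abca1* (0.431), and the most similar members of *Abca1*, *Lpl*, and *Nr1h3* were *Srebf1* (0.431), *Plin2* (0.606), and *Plin2* (0.488). Of all tested genes, the most similar were *Mphosph9* to *Abca1* (0.976), *Gm15880* to *Abcg1* (0.961), *Rab3il1* to *Nr1h2* (0.950), *Fam234b* to *Nr1h3* (0.963), *Ankrd55* to *Pparg* (0.949), *Rnf215* to *Apoe* (0.944), *Zfp788* to *Lpl* (0.940), *Snord96a* to *Plin2* (0.988), *Zkscan3* to *Mylip* (0.980), and *Stk24* to *Srebf1* (0.975). Each is the highest of the values over all other tested genes and is given as a description only.

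Prednisolone replicate 2 had the lowest level of 4 of the 10 genes, and spironolactone replicate 1 the highest of 3.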
